A study of Mus musculus with 58 samples.

Results

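The major histone gene cluster of the mouse lies on chromosome 13 and carries most of the genes for the core histones and the linker histone. It was examined here through the ChIP-seq peaks that fell into its 2 stretches, chr13:21700000-22250000 (the proximal window) and chr13:23550000-23900000 (the distal window) of build mm9. Every peak of 9 deposited lists that overlapped a window by at least 1 bp was taken, and a peak found in several lists counted once in each. This gave 261 of 156215 peaks, 137 in the proximal and 124 in the distal window, and the 1.3 Mb between the windows held 72 more. Membership was set by position, not by score.

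The series studied RNA-binding proteins on chromatin in mouse embryonic stem cells and the effect of removing PSPC1 on RNA polymerase II. Of its 58 samples, 9 came with a peak list, in 8 groups, and the other 49 were not used here. All 9 were ChIP-seq of tagged proteins with 5 µg of an antibody against the FLAG tag, in 129/Ola cells without treatment. PSPC1 was profiled in AID-FB(KI)-PSPC1 cells, a knock-in line made from CJ9 cells in which the endogenous protein carries a degron, with 2 libraries fixed in 3% formaldehyde. Each of 7 FB(OE) lines, made from BirA J1 cells, overexpressed 1 tagged protein and gave 1 library. Overexpressed PSPC1 was fixed in 1% formaldehyde, and CIRH1A, UTP3 and UTP6 in 3%. The hnRNPU, SAFB and SAFB2 libraries were fixed in 2 mM DSP, a protein-to-protein crosslinker, with 1% formaldehyde, treated with DNase I and purified again on streptavidin. No list of untagged cells was used here, so the peaks of a tag alone are unknown, and proteins with 1 library have no replicate error. Nothing in the labels says that the knock-in libraries came from separate cultures. Peak lists hold no RNA levels, so the cells were not checked against stem cell markers.

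Replication-dependent histone genes are short, lack introns and are transcribed in S phase, and their messages end in a stem-loop and not in a poly(A) tail. In the nucleus they gather at the histone locus body, a compartment that concentrates the factors for their transcription and 3′ end processing. PSPC1 is a protein of paraspeckles and binds RNA. CIRH1A (also called UTP4), UTP3 and UTP6 belong to the small-subunit processome, which matures ribosomal RNA in the nucleolus. hnRNPU, SAFB and SAFB2 are abundant nuclear proteins that bind RNA and scaffold-attachment DNA.

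RefSeq gene order, taken from another build (GRCm38.p6) and so used for names and order only, gave 55 histone genes in 2 runs, 54 of them protein-coding. One run, from H2bc13 to H2bc11, held 24 histone genes (1 H1, 8 H2A, 8 H2B, 2 H3 and 5 H4) among 31 tRNA genes and 9 others. The second run, from H4c8 to H2ac1, held 31 histone genes (5 H1, 6 H2A, 7 H2B, 7 H3 and 6 H4), 13 other genes and no tRNA gene. Between the runs stood 147 genes, of which 75 were vomeronasal receptor genes or pseudogenes of the Vmn1r family and 46 were tRNA genes. The neighbourhood between the runs thus differs in gene content from the histone runs. No peak was assigned to a gene and the window edges were not matched to the runs, because no annotation of mm9 was used here.

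The bases before the transcription start show motifs that differ in frequency between histone classes, and promoters of 51 of the 55 genes were found in RefSeq. The sequences shown are the 150 bases before the start on the gene's own strand (GRCm38.p6), 5′ to 3′, with motif matches on either strand in capitals. The motifs searched were the TATA box as TATAAA, the CCAAT box as CCAAT, the octamer of H2A and H2B genes as ATTTGCAT and the H1 box as AAACACA, and no motif contains another. They were chosen to show each class and both runs.
H1f3: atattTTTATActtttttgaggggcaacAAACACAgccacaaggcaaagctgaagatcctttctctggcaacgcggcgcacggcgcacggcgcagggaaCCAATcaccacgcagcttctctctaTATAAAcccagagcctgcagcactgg
H2bc8: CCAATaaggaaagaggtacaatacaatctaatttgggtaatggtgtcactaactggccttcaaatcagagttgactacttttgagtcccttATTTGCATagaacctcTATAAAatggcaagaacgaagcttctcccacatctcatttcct
H2ac8: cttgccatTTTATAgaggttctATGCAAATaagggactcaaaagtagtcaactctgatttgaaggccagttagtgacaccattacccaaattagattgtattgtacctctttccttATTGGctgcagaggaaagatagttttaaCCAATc
H3c2: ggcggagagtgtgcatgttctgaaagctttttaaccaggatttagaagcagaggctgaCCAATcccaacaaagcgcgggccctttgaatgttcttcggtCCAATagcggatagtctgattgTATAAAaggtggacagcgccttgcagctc
H3c10: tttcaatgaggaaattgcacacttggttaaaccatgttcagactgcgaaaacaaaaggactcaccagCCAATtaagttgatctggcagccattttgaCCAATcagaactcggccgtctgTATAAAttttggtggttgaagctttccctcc
H4c12: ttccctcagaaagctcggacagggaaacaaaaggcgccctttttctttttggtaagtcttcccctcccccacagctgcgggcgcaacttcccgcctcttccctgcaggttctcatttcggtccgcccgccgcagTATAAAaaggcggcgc
H2bc23: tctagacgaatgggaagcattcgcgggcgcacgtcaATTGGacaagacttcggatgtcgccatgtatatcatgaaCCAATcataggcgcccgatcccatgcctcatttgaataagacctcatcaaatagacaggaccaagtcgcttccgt
H1f3, a linker histone gene, held the H1 box, the CCAAT box and the TATA box in this order towards the start, and a further TATA box match on the opposite strand before them. H2bc8 and H2ac8 are a divergent pair: 179 bases of their upstream sequence were the same DNA read on opposite strands, and the octamer of H2bc8 is the one that H2ac8 holds. The H3 genes H3c2 and H3c10, of different runs, both held a CCAAT box and a TATA box, and H4c12 held a TATA box without a CCAAT box. The bases before H2bc23 were also those before H4bc24, identical over all 250 bases compared.

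Over the 250 bases before the start, the CCAAT box was found in 44 of 52 histone promoter sequences (84.6%) and in 33.8% of all 32851 promoters. It was in all 6 H1, 13 H2A, 15 H2B and 7 H3 sequences and in 3 of 11 H4 sequences. The TATA box was in 26 (50.0%, against 12.4% of all promoters). The octamer was in 11 (21.2%, against 1.60%), 5 of H2A and 6 of H2B genes. The H1 box was in 9 (17.3%, against 6.25%), among them 5 of the 6 H1 sequences. There were 12 gene pairs that shared at least 50 bases on opposite strands, each of an H2A and an H2B gene, with 20 genes among them. The count is raised by the duplicate: 4 of the 12 join H2ac23 or H2ac24 to the identical sequences of H2bc23 and H4bc24. Pairs of promoter sequences, 1325 in number, were compared base by base on their own strands, at equal distance from the start and without alignment. Only H2bc23 and H4bc24 reached 50% identity in this way, and the next reached 42.0%. Such a count misses copies that are shifted. H4c17 and H4c18 reached 35.6%, although the stretches just before their starts were the same sequence moved by 1 base. A read from identical copies cannot be placed on 1 of them, and how the authors treated such reads is not given in the sources used here. These matches describe the sequences and say nothing of which protein binds there.

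Members were found in every list, but unevenly. Overexpressed PSPC1 and UTP6 had 63 each, UTP3 38, knock-in PSPC1 34 and 13, CIRH1A 30, hnRNPU and SAFB 9 each and SAFB2 2. The distal window had 29 peaks of overexpressed PSPC1 and 29 of UTP6, 18 and 7 of knock-in PSPC1, 17 of UTP3, 14 of CIRH1A, 6 of SAFB and 4 of hnRNPU, and none of SAFB2. In the proximal window the counts were 34 for overexpressed PSPC1 and UTP6, 21 for UTP3, 16 for CIRH1A, 16 and 6 for knock-in PSPC1, 5 for hnRNPU, 3 for SAFB and 2 for SAFB2.

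**Figure D1:**
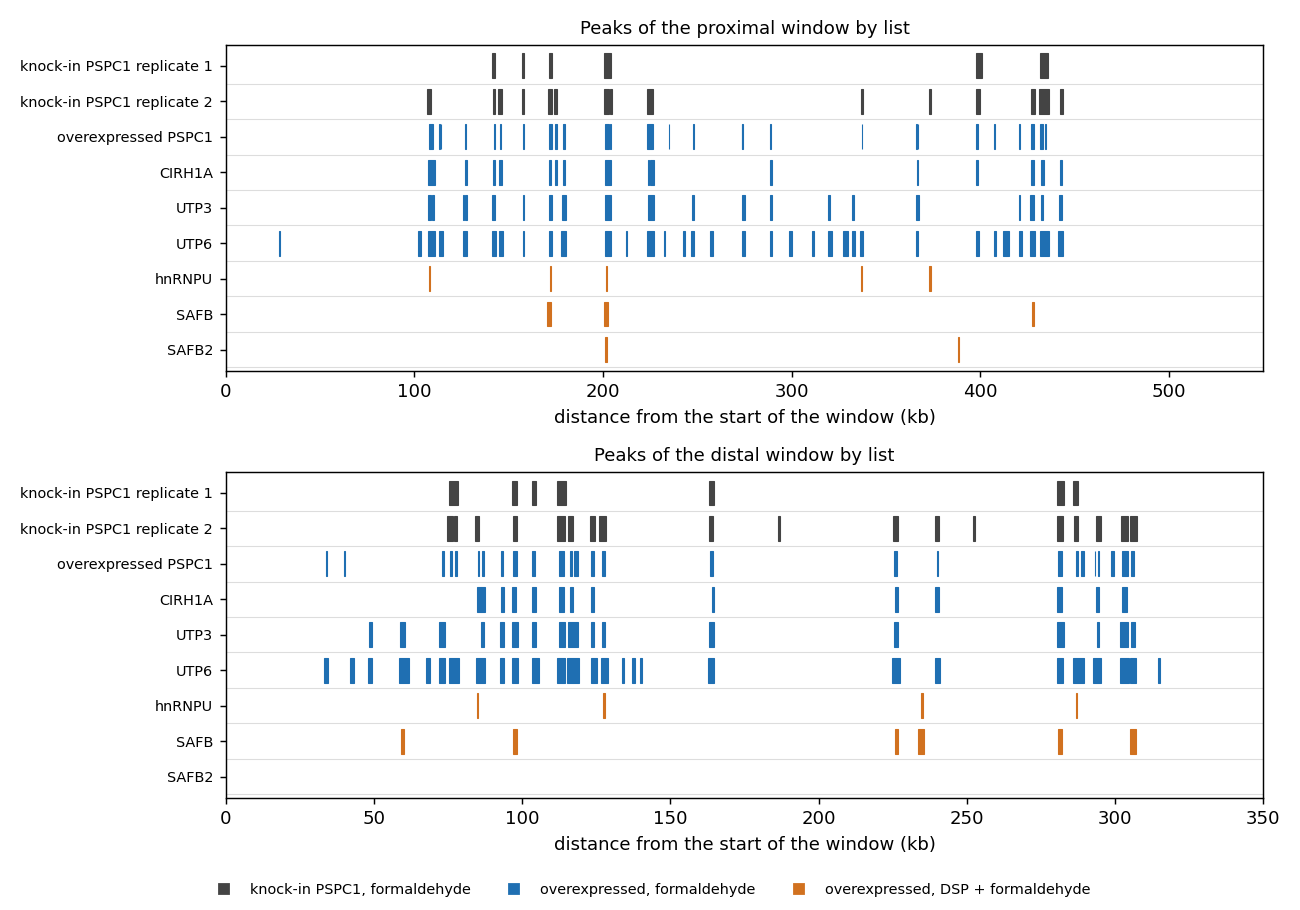
Peaks of each list along the proximal (top) and the distal (bottom) window, with the distance from the start of the window in kb on the x axis and 1 row per list. Each box is a peak at its deposited width, coloured by tag line and crosslinking, and the same places recur in the PSPC1, CIRH1A, UTP3 and UTP6 rows.

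To set lists of different length side by side, the peak density of the windows was divided by that of the whole list, with an exact (Clopper-Pearson) 95% interval that covers counting error only. CIRH1A had 33.3 peaks per Mb in the windows against 3.57 in the whole list, a fold of 9.33 (interval 6.30 to 13.3). Overexpressed PSPC1 followed at 8.33-fold (6.40 to 10.7) and UTP3 at 7.86-fold (5.56 to 10.8), and these 3 intervals overlap. Their order depends on the peaks kept: among the best 50% of each list overexpressed PSPC1 (12.96-fold) came before CIRH1A (11.8-fold). UTP6, the longest list, had the same 70.0 peaks per Mb as overexpressed PSPC1 but a lower fold of 4.72 (3.63 to 6.04). With overlapping peaks of all lists merged, the UTP6 peaks lay in 61 regions and those of overexpressed PSPC1 in 43. hnRNPU was at 2.64-fold (1.21 to 5.00) and SAFB at 2.55-fold (1.17 to 4.84). SAFB2, with 2 peaks, was at 0.903-fold with an interval of 0.109 to 3.26, which includes both a deficit and an excess.

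The knock-in libraries differed from each other. Replicate 1 had 14.4 peaks per Mb in the windows, 2.12-fold over its list (1.13 to 3.63), and replicate 2 had 37.8, 4.47-fold (3.09 to 6.24). Their mean fold was 3.29 ± 1.66 (SD, n = 2). Replicate 2 had 2.62 times as many members, from a list 1.24 times as long. Every list was also reduced to its 6670 best peaks, the length of the shortest. Replicate 1 then had no excess left (0.903-fold), while replicate 2 stayed at 4.52-fold. Overexpressed PSPC1 was at 13.5-fold, above the 10.4-fold of CIRH1A. Overexpressed PSPC1 lay above both knock-in libraries, but it also differed from them in cell line, expression and formaldehyde, and these cannot be told apart.

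**Figure D2:**
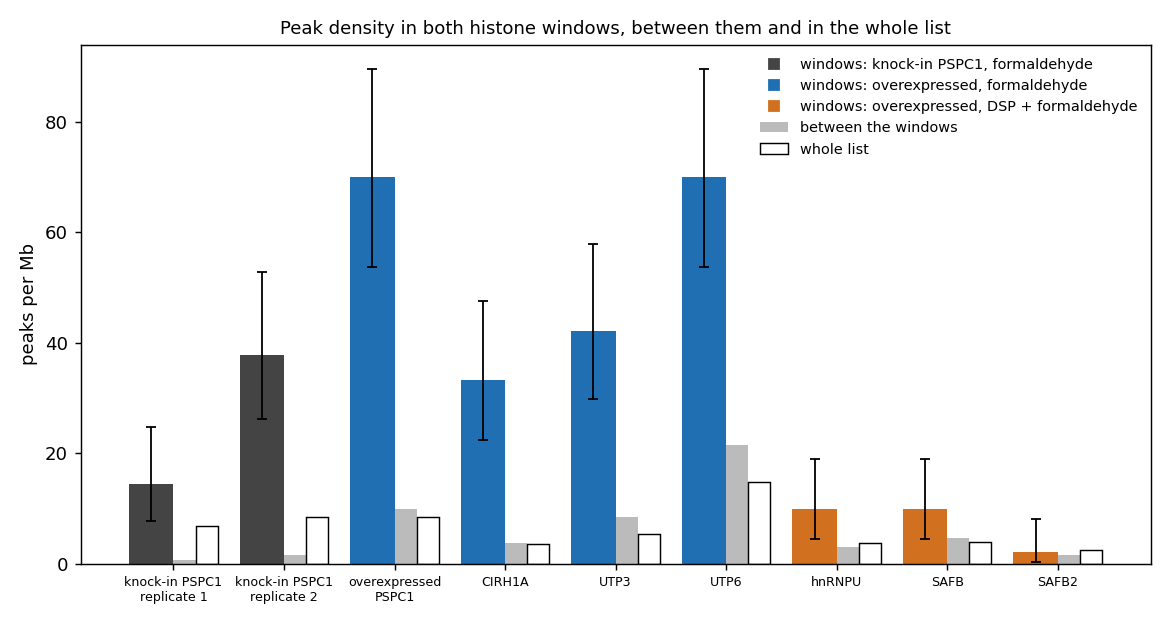
Peaks per Mb (y axis) for each list in both windows together (coloured bars, with exact 95% counting intervals), between the windows (grey) and in the whole list (white). The coloured bar is the highest of the 3 in 8 lists and not in SAFB2, where the whole list is at 2.46 peaks per Mb against 2.22 in the windows.

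The 1.3 Mb between the windows was poorer in peaks per Mb than the windows in every list, although for SAFB2 this compares 2 peaks with 2. Knock-in PSPC1 had 1 and 2 peaks there, or 0.769 and 1.54 per Mb, below the whole lists at 6.81 and 8.46. Relative to the whole list this was 0.113-fold (0.00286 to 0.630) and 0.182-fold (0.0220 to 0.657). The overexpressed proteins were nearer their own lists there, from 0.625-fold for SAFB2 to 1.58-fold for UTP3, and all 7 intervals include 1. UTP6 had 28 peaks between the windows, overexpressed PSPC1 13 and UTP3 11.

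The same pair of windows, with the same distance between them, was then placed around chromosome 13 in steps of 50 kb, leaving out placements that touched the true windows, and the placements with at least as many peaks were counted. This is a description of how peaks cluster, not a test, since neighbouring placements share peaks. Of 2346 placements, none (0%) had as many peaks as the histone windows for overexpressed PSPC1, where the fullest held 38, and none (0%) for UTP6, where the fullest held 57. The share was 0.341% for knock-in PSPC1 replicate 2, 0.426% for UTP3 and 0.81% for CIRH1A. It was 3.58% for knock-in PSPC1 replicate 1, 5.67% for hnRNPU and 6.73% for SAFB, and for SAFB2 53.8% of placements held 2 peaks or more.

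Over all chromosomes, with 25930 placements in steps of 100 kb, no placement reached the 63 peaks of overexpressed PSPC1, and the fullest held 61. For UTP6 9 placements did (0.0347%), for UTP3 45 (0.174%) and for CIRH1A 55 (0.212%). Knock-in PSPC1 differed here: 896 placements (3.46%) held as many as the 34 of replicate 2, up to 127 peaks, and 3582 (13.8%) as many as the 13 of replicate 1. Among all chromosomes the windows were thus an extreme for overexpressed PSPC1 and not for either knock-in library. The knock-in lists were denser on chromosome 1 than elsewhere. With that chromosome left out of the background, a choice made after seeing the data, their density folds were 2.54 and 5.11, in place of 2.12 and 4.47. Overexpressed PSPC1 went from 8.33 to 8.39. The placements were not repeated without chromosome 1, so its part in this contrast was not tested.

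**Figure D3:**
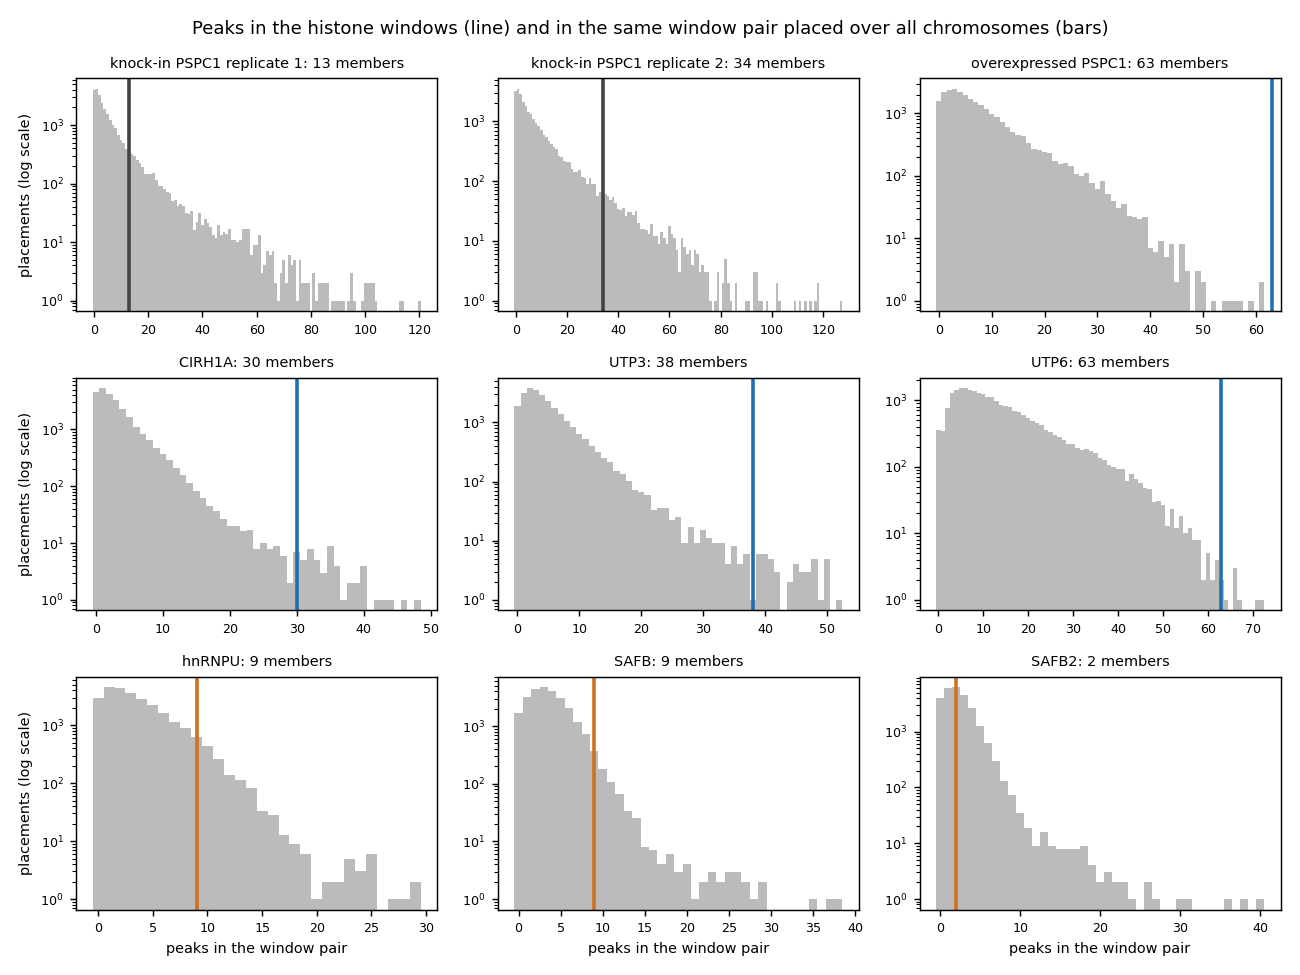
Number of peaks (x axis) in the window pair placed over all chromosomes, as the number of placements on a log scale (y axis, grey bars), with the histone windows as a coloured line. The line lies beyond all bars for overexpressed PSPC1, in the far tail for UTP6, UTP3 and CIRH1A, and within the bulk for SAFB2.

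Density was compared between crosslinking protocols over lists, with the knock-in PSPC1 libraries averaged into 1 value. Overexpressed PSPC1 entered as a separate value, so PSPC1 stands behind 2 of the 5 formaldehyde values. The test treats these 2 as independent. The log2 fold was 0.87 ± 0.88 (SD, n = 3) for the lists made with DSP and 2.62 ± 0.67 (SD, n = 5) for those made with formaldehyde alone. The difference of -1.76 had a two-sided p = 0.0357 in an exact permutation test over 56 assignments, whose smallest possible p is 0.0179. The highest DSP fold was 2.64 (hnRNPU) and the lowest of the others 3.08 (knock-in PSPC1, geometric mean), so the groups did not overlap, although knock-in replicate 1 alone, at 2.12, lies within the DSP range. With replicate 2 left out, and replicate 1 standing for the knock-in, the difference was -1.65 and the exact permutation p was 0.0714. At 6670 best peaks per list it was -1.98 and no longer passed 0.05 (exact permutation p = 0.0893). Since 3 different proteins were fixed with DSP and the 5 other values come from other proteins or lines, protocol and protein cannot be told apart.

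In bases, UTP6 peaks covered 13.4% of the windows, knock-in PSPC1 6.81% and 3.35%, UTP3 6.59%, overexpressed PSPC1 4.92%, CIRH1A 4.59%, SAFB 1.54%, hnRNPU 0.597% and SAFB2 0.221%. Against the covered share of all chromosomes this was 14.0-fold for overexpressed PSPC1, 13.1-fold for CIRH1A, 11.0-fold for UTP3 and 7.72-fold for UTP6. These folds exceed those in peak number because the members were wider than their lists. The median width was 601 bp for overexpressed PSPC1 (326 bp in the whole list), 1271 bp for CIRH1A (853), 1450 bp for UTP3 (967) and 1768 bp for UTP6 (1002). Knock-in members were nearer their lists, at 1771 bp (1500) and 1726 bp (1419). The DSP lists went the other way: members of hnRNPU had a median of 506 bp (796), of SAFB 1437 bp (1699) and of SAFB2 996 bp (1275).

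The widest member of each window was a UTP6 peak. It was chr13:22131540-22136412, of 4873 bp, in the proximal window and chr13:23835900-23839634, of 3735 bp, in the distal one. Their scores, 199.36 and 121.96, stood at percentiles 79.3 and 55.4 of the UTP6 list, so width and score were not at the same rank.

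Neighbouring members of overexpressed PSPC1 were a median of 4.20 kb apart, against 37.5 kb in the whole list. Those of UTP6 were 8.03 kb apart (27.7), of CIRH1A 11.3 kb (97.6), of UTP3 12.7 kb (75.4) and of knock-in PSPC1 12.4 kb (26.2) and 20.7 kb (31.4). SAFB members were 37.9 kb apart (146) and those of hnRNPU 52.2 kb (115). Spacing counts every peak, also neighbours at 1 place. After overlapping peaks of all lists were merged, the 63 members of overexpressed PSPC1 lay in 43 regions and the 63 of UTP6 in 61. The distal window held more peaks per Mb than the proximal one, by 1.26 times for hnRNPU to 3.14 times for SAFB in the 8 lists with distal members. This counts the whole length of each window, and the proximal one has long stretches without peaks at its edges. For SAFB it rests on 6 and 3 peaks.

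The peak score is the value the authors' caller gave each peak. Its unit is not stated, so it was read only as a percentile within its own list, where 100 is the highest. The median member stood at percentile 91.1 for SAFB, 68.5 for overexpressed PSPC1, 62.4 for knock-in PSPC1 replicate 2, 59.9 for CIRH1A, 56.4 for UTP6, 51.9 for UTP3, 41.1 for knock-in replicate 1, 37.8 for hnRNPU and 30.1 for SAFB2. An order-statistic 95% interval of the median lay above 50 only for overexpressed PSPC1 (62.3 to 77.1). The interval of SAFB, with 9 members, ran from 18.8 to 92.1. Knock-in lists alone reach well below a score of 50, so percentiles were also taken anew among peaks of at least 50. This lowers the percentile of every peak that stays. The median was then at percentile 43.3 for replicate 2, below its interval of 49.0 to 70.7. For replicate 1 it was at 24.8, within its interval of 18.8 to 60.2.

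Among the best 10% of their lists were 12 of 63 UTP6 members, 10 of 63 of overexpressed PSPC1, 5 of 38 of UTP3, 5 of 9 of SAFB, 2 of 30 of CIRH1A and 1 of 9 of hnRNPU. Neither knock-in list had a member there: their highest were at percentiles 85.4 and 89.4. In the distal window 27 of 29 members of overexpressed PSPC1 were above the median of their list, and in the proximal one 22 of 34. Lowest scores in the windows were 32.85 and 30.12 in the knock-in lists and between 50.32 and 54.51 in the other 7.

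**Figure D4:**
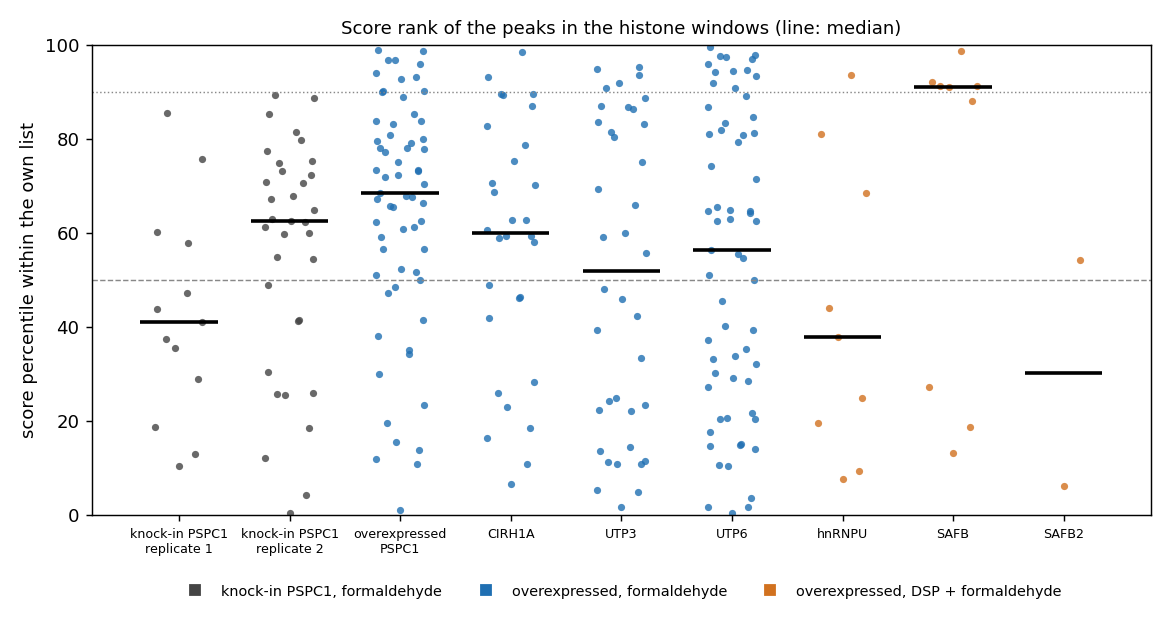
Score percentile of each member within its own list (y axis) by list, with the median as a black line, percentile 50 dashed and percentile 90 dotted. Members of UTP3 and UTP6 span nearly the whole range, those of knock-in PSPC1 stay below 90, and 5 of the 9 SAFB members lie above it.

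The highest-scoring member of CIRH1A, UTP6 and SAFB2 fell at the same place. For CIRH1A it was chr13:21901079-21904276, score 305.78, rank 162 of 9689. For UTP6 it was chr13:21900775-21904445, score 506.81, rank 207 of 40217. For SAFB2 it was chr13:21901288-21902299, score 69.1, rank 3057 of 6670. Overexpressed PSPC1 scored highest at chr13:23830604-23832286, with 812.49 and rank 265 of 22785, and UTP3 at chr13:23646694-23648435, with 211.38 and rank 691 of 14562. Knock-in PSPC1 scored highest elsewhere: replicate 1 at chr13:22097571-22100732 (179.18, rank 2693 of 18455) and replicate 2 at chr13:22131103-22133703 (224.72, rank 2438 of 22926).

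SAFB and hnRNPU had their highest members at 1 place that no other list reached. The SAFB peak chr13:23783701-23785556 had score 264.06 and rank 144 of 10632. The hnRNPU peak chr13:23784382-23785278, within it, had 147.04 and rank 667 of 10279. This was the only region of the windows held by DSP lists alone in more than 1 list, and it was picked out after its values were seen.

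Overlapping peaks of all lists were merged into regions, 38 in the proximal and 32 in the distal window. UTP6 had a peak in 61 of the 70 (87.1%), overexpressed PSPC1 in 43 and knock-in replicate 2 in 31. Shares by list, here and for regions in a single list, were not counted over all chromosomes. The lists differ in length, from 6670 peaks (SAFB2) to 40217 (UTP6), so these counts by list have no background. Of the 70, 47 (67.1%) were in at least 2 lists, against 48.7% of the regions of all chromosomes. The 23 in a single list were 17 of UTP6, 3 of overexpressed PSPC1, 2 of knock-in replicate 2 and 1 of SAFB2. A peak in 6 or more lists was found in 12 regions (17.1%), against 6.99% of the 67384 regions of all chromosomes. Between the windows 16 of 33 regions were in at least 2 lists.

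All 12 regions in 6 or more lists held peaks of knock-in replicate 2, overexpressed PSPC1, CIRH1A, UTP3 and UTP6. How often these lists take part in the 4711 such regions of all chromosomes was not counted. In the windows the other lists were there less often. Knock-in replicate 1 was in 8 of them, SAFB in 6, hnRNPU in 4 and SAFB2 in 1. They were split evenly, 6 in each window. When a score of at least 50 was asked of every list, 8 regions were in 6 or more lists.

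One region, chr13:21900598-21904554 in the proximal window, held peaks of all 9 lists. Its best score was at percentile 99.5 for UTP6, 98.3 for CIRH1A, 93.6 for UTP3, 88.1 for SAFB, 83.8 for overexpressed PSPC1, 81.0 for hnRNPU, 67.8 for knock-in replicate 2, 54.2 for SAFB2 and 10.4 for knock-in replicate 1. Replicate 1 had its lowest-scoring member here, at 32.85, where replicate 2 had 78.35. On all chromosomes 119 regions were in 9 lists.

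The region chr13:21870368-21872895 held 8 lists, all but SAFB2. Overexpressed PSPC1, at percentile 95.8, and SAFB, at 91.1, were high there, while the other 6 lay between 24.8 (hnRNPU) and 62.9 (UTP6). In the distal window chr13:23646597-23648464 and chr13:23830276-23832809 held the same 7 lists, without hnRNPU and SAFB2. Overexpressed PSPC1 stood at percentiles 98.6 and 98.8 in them, UTP3 at 95.3 and 91.9, UTP6 at 90.7 and 95.9, and SAFB at 91.1 in both. CIRH1A stood at 60.5 and 87.0, knock-in replicate 2 at 73.0 and 77.3 and replicate 1 at 41.1 and 47.2. In both places the overexpressed PSPC1 peak ranked above either knock-in peak.

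The 8 regions with 6 lists were chr13:21806592-21811150, chr13:21841045-21843064, chr13:22126214-22128946 and chr13:22131103-22136412 in the proximal window, and chr13:23633983-23637458, chr13:23661762-23664891, chr13:23712536-23714799 and chr13:23774885-23777368 in the distal one. Beside the 5 lists common to all, the sixth was knock-in replicate 1 in 4 of them, hnRNPU in 2 and SAFB in 2.

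Peaks were absent at the edges. No list had a peak in chr13:22143658-22250000, the last 106 kb of the proximal window. In its first part a single UTP6 peak lay between 2 empty stretches of 27.9 and 73.0 kb. In the distal window the longest empty stretch was inside, chr13:23737137-23774884, of 37.7 kb, and those at its start and end were 33.2 and 34.8 kb.

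Sharing between lists was counted as the share of members with a peak of the other list over at least 1 bp, beside the same share of the whole list. Because members were wider than their lists for the formaldehyde libraries, the count was repeated with every peak set to 500 bp around its midpoint. This also widens shorter peaks. For overexpressed PSPC1 it widened most peaks of the list (median 326 bp) and narrowed most members (median 601 bp). Of 72 ordered pairs of lists, 53 had a higher share in the windows. In 28 the exact 95% interval lay above the share of the whole list, and in 3 below it. Every list but SAFB2 also covered more of the windows than of all chromosomes. Overexpressed PSPC1 covered 4.92% against 0.352%, and UTP3 6.59% against 0.599%. A denser list is met more often by position alone, and the shares were not adjusted for this. A higher share in the windows is therefore not evidence of sharing beyond density.

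Both knock-in lists met overexpressed PSPC1 more in the windows. All 13 members of replicate 1 had a partner there, against 40.2% of its list, and 30 of 34 of replicate 2 (88.2%, interval 72.5 to 96.7), against 40.4%. At 500 bp the shares were 76.9% against 31.4% and 85.3% against 32.6%. In the other direction 38 of 63 members of overexpressed PSPC1 (60.3%) met replicate 2, against 49.3%, and 19 (30.2%) met replicate 1, against 40.6%. For replicate 1 the direction turned with the overlap asked for: at 500 bp the shares were 15.9% against 27.6%, and with a reciprocal overlap of 50% they were 7.94% against 2.38%. Between the replicates, 12 of 13 members of replicate 1 (92.3%, 64.0 to 99.8) met replicate 2, against 58.8%, and 15 of 34 of replicate 2 (44.1%, 27.2 to 62.1) met replicate 1, against 48.3%. With a reciprocal overlap of 50%, 10 of the 13 (76.9%, 46.2 to 95.0) met replicate 2, and the interval includes the 49.7% of the list.

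CIRH1A and UTP3 members met overexpressed PSPC1 more often than their lists did, but not knock-in replicate 1, which was met by 33.3% of CIRH1A members (34.0% of the list) and 28.9% of UTP3 members (32.5%). Knock-in replicate 2 was met by 76.7% of CIRH1A members (57.7 to 90.1), against 45.0% of the list. Of UTP3 members 55.3% (38.3 to 71.4) met it, against 42.0%, which the interval includes. Of the CIRH1A members 29 of 30 (96.7%, 82.8 to 99.9) met overexpressed PSPC1, against 67.3% of the list, and at 500 bp the same 96.7% stood against 65.6%. For UTP3 it was 32 of 38 (84.2%, 68.7 to 94.0), against 60.4%, and at 500 bp 81.6% against 57.5%. Within the processome group the windows were closer to the lists: 25 of 30 CIRH1A members (83.3%) met UTP3, against 72.2%, 29 of 30 (96.7%) met UTP6, against 94.5%, and all 38 UTP3 members met UTP6, against 93.7%. Overexpressed PSPC1 met UTP6 at 59 of 63 members (93.7%, 84.5 to 98.2), against 78.8%, but at 500 bp this turned to 60.3% against 70.7%.

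Some lists were met less often in the windows. hnRNPU was met by 4 of 30 CIRH1A members (13.3%, 3.76 to 30.7), against 38% of the list, by 4 of 38 of UTP3 (10.5%, 2.94 to 24.8), against 34.3%, and by 8 of 63 of overexpressed PSPC1 (12.7%, 5.65 to 23.5), against 27.2%. These were the 3 pairs with an interval below the whole list, and at 500 bp the shares were 6.67%, 7.89% and 11.1%, still below 33.6%, 30.7% and 24.4%. With a reciprocal overlap of 50% the share for overexpressed PSPC1 was no longer below, at 7.94% against 7.52%. Its own 9 members met knock-in replicate 2 in 8 cases (88.9%, 51.8 to 99.7), against 40.2%, but a reciprocal overlap of 50% left 1 (11.1% against 21.1%). For both knock-in lists and SAFB the share that met hnRNPU was higher than in their lists, within the intervals (23.1% against 18.2%, 23.5% against 17.9% and 33.3% against 16.6%). SAFB2, with 2 members, was also met less often by overexpressed PSPC1 (3.17% against 8.40%), CIRH1A (3.33% against 14.1%), UTP3 (2.63% against 12.7%) and UTP6 (1.59% against 7.22%), with intervals that include the list.

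SAFB had 9 members, and 8 (88.9%, 51.8 to 99.7) met UTP3, against 25.2% of its list. Overexpressed PSPC1 was met by 7 (77.8%, 40.0 to 97.2), against 23.1%. At 500 bp these were 55.6% against 14.8% and 77.8% against 14.8%. Its close relative SAFB2 was met by 1 of 9 (11.1%, 0.281 to 48.2), against 34.5%, which the interval includes. So SAFB peaks in the windows lay mostly at places of the formaldehyde lists.

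**Figure D5:**
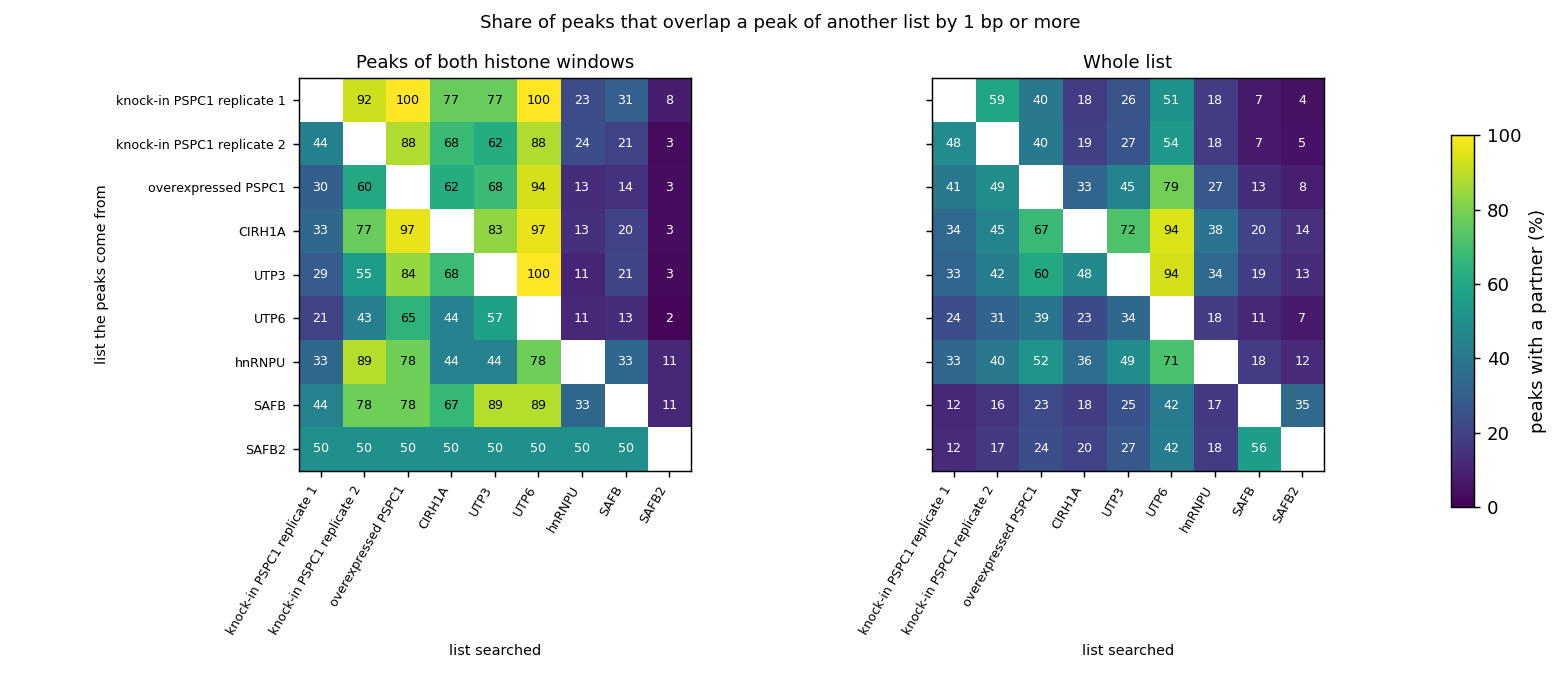
Percent of the peaks of 1 list (rows) that overlap a peak of another (columns) in both histone windows (left) and in the whole list (right), on the same colour scale from 0 to 100. The PSPC1, CIRH1A, UTP3 and SAFB rows are brighter on the left for the PSPC1, CIRH1A, UTP3 and UTP6 columns. The knock-in replicate 1 column is an exception in these rows, apart from SAFB (44.4% against 11.7%). The hnRNPU column is darker on the left for overexpressed PSPC1, CIRH1A, UTP3 and UTP6.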

How the data were processed

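ChIP-seq peak lists of 9 libraries were used, each with the chromosome, start, end, name and score of its peaks. The deposited score is the authors' own value per peak, with no unit or threshold stated, and it was only ranked within a list. Reads were handled with CASAVA, Bowtie2 and TopHat on mm9, per the submitters' processing notes, which give no role for each. The peak caller's settings and controls are not given in the sources used here, and reads or depth were not analysed, so list length stands in for depth and depth is unknown.

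Peaks were counted in Python 3.11.15 with pandas 2.3.3 and numpy 2.4.6. Intervals came from scipy 1.17.1 and figures from matplotlib 3.10.9. Total length was the sum over chromosomes of the largest peak end (2711 Mb). Exact 95% intervals cover counting error only. Regions in 6 or more lists (at most 12), the highest-scoring member of each list and the widest of each window were named. Counting code was tested on simulated peaks. Alternatives changed membership, the score minimum, the background, the windows and the overlap. The windows, lists and tests were chosen with earlier results of these data known.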

Additional observations from a re-analysis of the deposited data

How the results depend on the processing

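Taking members by midpoint left the density folds, the protocol difference and the score ranks on the same side and within their intervals. With as many peaks per list as the shortest list (6670), knock-in PSPC1 replicate 1 turned from an excess to 0.903-fold and replicate 2 stayed at 4.52-fold. Overexpressed PSPC1 rose to 13.5-fold and UTP6 to 6.77-fold. With the best 50% of each list, overexpressed PSPC1 was at 12.96-fold, and the knock-in replicates 1 and 2 at 1.31-fold and 6.04-fold. Against chromosome 13 outside the windows, knock-in replicate 2 was at 6.35-fold, and with windows 100 kb longer at each end at 3.09-fold. SAFB2 was above 1-fold with longer (1.25) and shorter (1.16) windows, within its interval. The mean knock-in fold was 2.12 to 4.47 with 1 replicate left out.

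The protocol difference (log2) was -1.98 with equal list lengths (exact permutation p = 0.0893), -2.01 with the best 50% (exact p = 0.0536) and -1.41 with longer windows (exact p = 0.0536), past the threshold in none of these. With 1 knock-in replicate left out it was -1.86 to -1.65. The cause of these changes was not tested. A background without chromosome 1, chosen after seeing the data, gave -1.81 (exact permutation p = 0.0179).

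With 500 bp peaks, coverage fell by construction to 0.722% and 1.89% for knock-in PSPC1, 3.47% for overexpressed PSPC1, 3.50% for UTP6, 2.11% for UTP3, 1.67% for CIRH1A and 0.500% for SAFB. At a score of at least 50, knock-in replicate 1 covered 1.27%, and the median percentile of replicate 2, ranked anew among the peaks left, was 43.3. Then 16.7% of replicate 2 met replicate 1, and 11.1% of overexpressed PSPC1 met replicate 1.

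A reciprocal overlap of 50% gave, with overexpressed PSPC1, 38.5% and 26.5% of knock-in members (whole lists 2.94% and 2.52%), 56.7% of CIRH1A (26.1%) and 44.7% of UTP3 (15.6%); from overexpressed PSPC1, 9.52% with UTP6 (8.60%), 7.94% and 14.3% with the knock-in lists (2.38% and 2.53%); with UTP6, 73.3% of CIRH1A (72.0%) and 73.7% of UTP3 (83.8%); with hnRNPU, 0% of CIRH1A and of UTP3 (28.7% and 25.6%); and 11.1% of hnRNPU with knock-in replicate 2 (21.1%). At 500 bp UTP6 was met by 60.3% of overexpressed PSPC1 and 81.6% of UTP3, and knock-in replicate 1 by 15.9% of overexpressed PSPC1. Numbers of regions stayed within 1.5 times. At a score of at least 50 there were 69 regions in place of 70, and 8 in place of 12 in 6 or more lists. With 500 bp peaks these numbers were 86 and 10.

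No paired analysis was possible because 1 group alone has 2 lists. List length, peak width and the lack of an untagged list limit these values.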
